A study of Mus musculus with 9 samples.

Results

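The genes Wt1, Arap3, Ceacam1, Inhbb, Atp7a, Lrrc8b and Cav2, 7 of the 38293 genes counted, were followed across all 9 libraries. They were chosen on their measured counts, as genes among the largest differences of mESC-ser from mESC-2i or from EpiLC, with no numeric threshold, so their values are a description and carry no test. The counts come from poly-A RNA-seq of E14, a mouse embryonic stem cell line of strain 129/Ola, in 3 culture states with 3 biological replicates each. mESC-2i, the naive state, were kept in N2B27 medium with leukaemia inhibitory factor (LIF), the MEK inhibitor PD0325901 and the GSK3 inhibitor CHIR99021. mESC-ser, called primed in the labels, grew on gelatin in DMEM with foetal bovine serum and LIF. EpiLC, epiblast-like cells, were made from naive cells on fibronectin in N2B27 with activin A, bFGF and KSR, and without LIF in the stated medium. All 3 groups are the same line, so they hold no replicate at the level of cell lines.

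The 7 genes do not belong to a single pathway. Wt1 encodes a zinc finger transcription factor of the developing kidney, gonad and mesothelium, and Arap3 encodes a GTPase-activating protein for ARF proteins and other small GTPases that is recruited by phosphoinositides made by PI3 kinase. Inhbb encodes the beta B chain of activin B and inhibin B, ligands that signal through, or block, type II activin receptors and SMAD2 and SMAD3. The others encode proteins of the membrane: Ceacam1 a cell adhesion molecule with an inhibitory cytoplasmic tail, Atp7a a copper-exporting ATPase, Lrrc8b a subunit of the volume-regulated anion channel, and Cav2 caveolin-2, which assembles with caveolin-1. Serum holds growth factors that act through the MEK pathway, which is blocked in 2i medium and driven by bFGF in EpiLC medium.

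The libraries held between 7187576 and 16829549 counts. Levels are given as counts, as counts relative to library size (CPM) after scaling by TMM over all 9 libraries, and, where genes are set beside each other, as CPM per kilobase of exonic sequence (RPKM). Groups were compared pair by pair with the quasi-likelihood test of edgeR, and calls needed an absolute log2 fold change over 0.5 with a p under 0.05 after Benjamini-Hochberg adjustment. Large shares of all genes passed that threshold. Among the 15728 genes tested for mESC-ser against mESC-2i, 25.9% were called higher and 30.3% lower. For EpiLC against mESC-2i 32.0% of 15378 were called higher and 37.8% lower, and in EpiLC against mESC-ser 35.5% of 15345 were called higher and 37.8% lower. With scaling by total counts the share of calls that were higher moved from 45.9% to 33.7% when EpiLC were set against mESC-2i and from 48.4% to 37.4% when they were set against mESC-ser.

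In every library of mESC-ser all 7 genes stood above every library of mESC-2i, which the choice of genes favours. The share of all genes with this pattern was not counted, and 25.9% of all tested genes were called higher in this pair. For 6 of the 7, all but Wt1, the mESC-ser libraries also stood above every EpiLC library, a pattern shown by 25.4% of 16177 genes and favoured by the way the genes were chosen. The 7 genes showed 3 patterns. Wt1 and Arap3 were near 0 in mESC-2i and were read in both mESC-ser and EpiLC. Inhbb, Lrrc8b, Atp7a and Ceacam1 were low in mESC-2i, high in mESC-ser and at or near 0 in EpiLC. Cav2 was low everywhere. In bulk RNA a change in the share of cells that express a gene and a change in RNA per cell cannot be told apart.

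**Figure D1:**
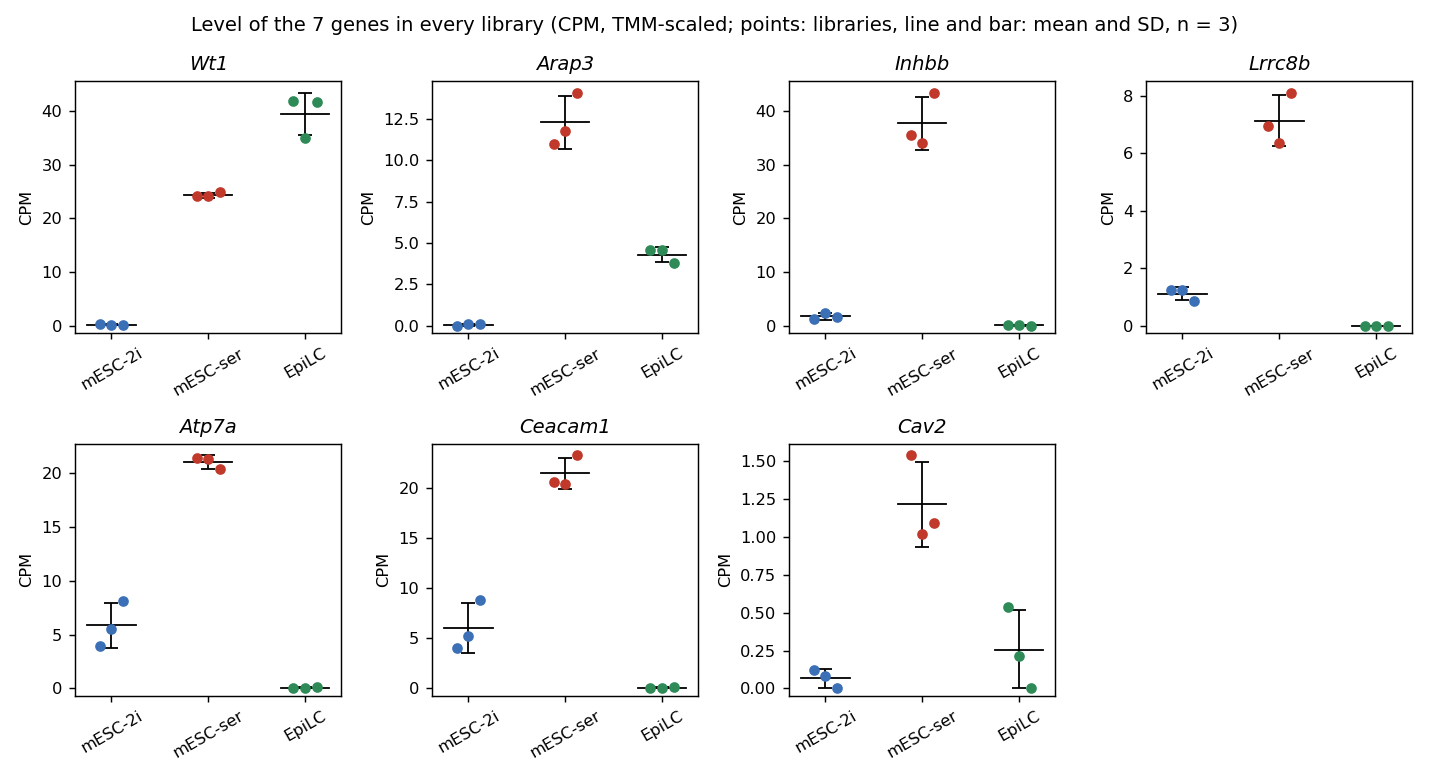
CPM of the 7 genes (vertical axes, linear, scaled per panel) in each library of mESC-2i, mESC-ser and EpiLC, with the mean as a line and the SD as a bar that is not drawn below 0. Wt1 lies at 35.0 to 41.9 CPM in EpiLC, above the 24.1 to 24.9 CPM of mESC-ser, while Inhbb, Lrrc8b, Atp7a and Ceacam1 lie at or near 0 in EpiLC.

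Per kilobase, the order of levels differed between the states. In mESC-ser Inhbb was highest at 8.85 ± 1.18 RPKM (mean ± SD, n = 3 here and below), followed by Wt1 at 3.93 ± 0.0773, Ceacam1 at 3.69 ± 0.264, Atp7a at 2.40 ± 0.0725, Arap3 at 1.54 ± 0.204, Lrrc8b at 1.06 ± 0.131 and Cav2 at 0.365 ± 0.0847. Of neighbours in this order only Wt1 and Ceacam1 overlapped, at 3.89 to 4.02 and 3.52 to 3.99 RPKM. In mESC-2i Ceacam1 was highest at 1.04 ± 0.428 RPKM and Atp7a next at 0.669 ± 0.242, and the libraries of these 2 genes overlapped, as did those of Atp7a and Inhbb. In EpiLC Wt1 stood at 6.38 ± 0.63 RPKM and Arap3 at 0.539 ± 0.0573, and every other member had a library without a count.

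Wt1 (ENSMUSG00000016458; chromosome 2, 105126529 to 105173616 of GRCm38, plus strand) went against a reading as a gene of serum culture alone. It held 2, 2 and 1 counts in replicates 1, 2 and 3 of mESC-2i. It held 344, 284 and 434 counts in mESC-ser, with 312, 323 and 332 in EpiLC. The EpiLC libraries were smaller, and in CPM Wt1 was at 24.1, 24.1 and 24.9 in mESC-ser and at 41.9, 35.0 and 41.7 in EpiLC, so that every EpiLC library was above every mESC-ser library. For EpiLC over mESC-ser the log2 fold change was 0.78 (SE 0.10). It was 0.44 under scaling by total counts and 1.16 after a correction for gene length and GC content, above 0 in each. Over mESC-2i, mESC-ser reached a ratio of 161 in scaled counts (95% counting interval 68.8 to 497), with 1062 counts against 5, and a fitted log2 fold change of 7.18, place 13 from the top among 15728 genes. Such intervals are computed from counts summed over the replicates. They cover counting error only and leave out differences between replicates, and reads carried no molecular identifiers.

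Arap3 (ENSMUSG00000024451; chromosome 18, 37972628 to 37998969, minus strand) had the same near absence in mESC-2i and a lower level in EpiLC. It held 0, 1 and 1 counts in mESC-2i, 157, 139 and 246 in mESC-ser, with 34, 42 and 30 in EpiLC. No library overlapped between groups. The EpiLC mean of 4.30 ± 0.457 CPM was 34.9% of the mESC-ser mean of 12.3 ± 1.63 CPM, with a log2 difference of -1.43 (SE 0.17), which was -1.77 under total counts and -0.89 after the length and GC correction. The ratio of mESC-ser over mESC-2i was 205 (interval 56.6 to 1700), and the fitted log2 fold change of 7.40 was place 11. A pair of microRNA genes, Mir6980 and Mir6981, lies within Arap3 on the same strand and shares up to 115 exonic bases with it. Neither is analysed here.

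Inhbb (ENSMUSG00000037035; chromosome 1, 119415465 to 119422248, minus strand) had the highest level of the 7 in mESC-ser on both the CPM and the RPKM scale. It held 10, 29 and 21 counts in mESC-2i, 507, 402 and 756 in mESC-ser, with 1, 2 and 0 in EpiLC. The groups did not overlap in CPM, at 1.23 to 2.42 in mESC-2i, 34.1 to 43.4 in mESC-ser, with 0 to 0.217 in EpiLC. The log2 fold change of mESC-ser over mESC-2i was 4.32 (SE 0.21), place 109. The ratio of mESC-ser over EpiLC was 314 (interval 107 to 1530).

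Lrrc8b (ENSMUSG00000070639; chromosome 5, 105415775 to 105490074, plus strand) was the only member without a single count in EpiLC. Its counts were 10, 15 and 11 in mESC-2i and 99, 75 and 141 in mESC-ser. Set against 3 counts over the group, the limit that 0 counts allow, mESC-ser was at least 59.5-fold higher than EpiLC. The log2 fold change of mESC-ser over mESC-2i was 2.64 (SE 0.23), place 445.

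Atp7a (ENSMUSG00000033792; chromosome X, 106027276 to 106124926, plus strand) and Ceacam1 (ENSMUSG00000074272; chromosome 7, 25461707 to 25477603, minus strand) had almost the same count in every library although they lie on different chromosomes. Atp7a held 32, 66 and 104 counts in mESC-2i, 306, 251 and 353 in mESC-ser, with 0, 0 and 1 in EpiLC. Ceacam1 held 33, 62 and 113 counts in mESC-2i, 295, 241 and 404 in mESC-ser, with 0, 0 and 1 in EpiLC. The ratio of Atp7a counts to Ceacam1 counts ran from 0.920 to 1.06 over the mESC-2i libraries and from 0.874 to 1.04 over the mESC-ser libraries. Replicate 3 of mESC-2i was the highest of its group for both, at 8.11 CPM for Atp7a and 8.81 CPM for Ceacam1, against 3.93 to 5.50 and 4.05 to 5.17 CPM in the other two. The log2 fold change of mESC-ser over mESC-2i was 1.75 (SE 0.21) for Atp7a and 1.74 (SE 0.23) for Ceacam1, places 944 and 953. Without replicate 3 of mESC-2i the highest values of these folds were reached, at 2.07 and 2.14. The larger difference of both genes was from EpiLC, where mESC-ser had a ratio of 515 for Atp7a (interval 92.3 to 20400) and 532 for Ceacam1 (interval 95.3 to 21000).

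Cav2 (ENSMUSG00000000058; chromosome 6, 17281185 to 17289115, plus strand) rested on few reads. It held 1, 1 and 0 counts in mESC-2i, 22, 12 and 19 in mESC-ser, with 4, 2 and 0 in EpiLC. The mESC-ser libraries lay above all others, and the libraries of mESC-2i and EpiLC overlapped. Over mESC-2i the ratio was 20.1 (interval 5.29 to 170), and the fitted log2 fold change was 4.07 (SE 0.61), place 127. It ran from 3.44 without replicate 3 of mESC-2i to 4.59 without replicate 1 of mESC-2i. For EpiLC over mESC-ser the log2 fold change was -2.19 (SE 0.56). An antisense gene overlaps each of Cav2 (Gm15581) and Ceacam1 (4732471J01Rik), with 0 shared exonic bases.

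The promoters of 5 of the 7 genes were in the RefSeq table for GRCm38.p6, as 250 bases before the start of the transcript, and Wt1 and Arap3 were not matched. Motifs were searched on both strands: AP-1 as TGANTCA, ETS as CCGGAAG, WT1 and EGR as GCGNGGGCG, SP1 as GGGCGG, TCF/LEF as CTTTGAT, SMAD as CAGACA, the TATA box as TATAAA, and the SRF CArG box. The letters of WT1 and EGR can overlap those of SP1. Sequences are shown for Atp7a and Ceacam1, which had nearly equal counts, and for Lrrc8b and Cav2, which both hold an AP-1 motif. Each runs 5′ to 3′ on the strand of the gene, with the motif letters in capitals. They lie at chrX:106026974-106027223 (plus strand), chr7:25477626-25477875 (minus strand), chr5:105415525-105415774 (plus strand) and chr6:17280935-17281184 (plus strand).
Atp7a: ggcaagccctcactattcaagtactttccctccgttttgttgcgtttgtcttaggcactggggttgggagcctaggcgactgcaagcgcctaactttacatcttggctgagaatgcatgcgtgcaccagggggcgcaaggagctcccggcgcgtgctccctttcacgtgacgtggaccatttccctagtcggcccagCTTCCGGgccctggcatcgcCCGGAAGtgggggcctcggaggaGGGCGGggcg
Ceacam1: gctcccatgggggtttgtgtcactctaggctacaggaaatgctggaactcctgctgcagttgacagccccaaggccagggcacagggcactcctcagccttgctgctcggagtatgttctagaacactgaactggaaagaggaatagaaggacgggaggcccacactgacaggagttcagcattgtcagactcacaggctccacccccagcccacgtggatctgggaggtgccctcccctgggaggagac
Lrrc8b: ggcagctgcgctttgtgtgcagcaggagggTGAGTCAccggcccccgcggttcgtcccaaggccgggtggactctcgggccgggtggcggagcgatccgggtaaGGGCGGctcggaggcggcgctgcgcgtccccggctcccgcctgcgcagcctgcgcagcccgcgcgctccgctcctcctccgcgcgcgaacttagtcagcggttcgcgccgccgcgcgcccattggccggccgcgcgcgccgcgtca
Cav2: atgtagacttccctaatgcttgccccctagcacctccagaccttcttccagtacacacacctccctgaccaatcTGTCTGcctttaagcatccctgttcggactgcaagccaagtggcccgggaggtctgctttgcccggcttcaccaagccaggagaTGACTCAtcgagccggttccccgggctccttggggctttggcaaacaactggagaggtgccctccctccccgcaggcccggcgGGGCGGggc

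The promoters of Atp7a and Ceacam1 had little in common in these letters. That of Atp7a held the ETS motif at 2 places and the SP1 motif, and had 18 CpG dinucleotides, an observed over expected ratio of 0.742. That of Ceacam1 held none of the motifs and 3 CpG dinucleotides, a ratio of 0.139, against a median of 0.374 over 32851 promoters. The AP-1 motif of Lrrc8b began 220 bases before the start and that of Cav2 92 bases before it. It was present in 6.75% of all promoters in the table, the ETS motif in 6.91%, the SP1 motif in 32.7% and the SMAD motif in 17.1%. Cav2 also held the SMAD and SP1 motifs and Lrrc8b the SP1 motif. The promoter of Lrrc8b had 43 CpG dinucleotides and a ratio of 1.15, above 98.9% of all promoters. The promoter of Inhbb (chr1:119422249-119422498, minus strand) held the SP1 motif alone, and its CpG ratio was 0.727. The motifs of WT1 and EGR, of TCF/LEF and of SRF and the TATA box, in 4.70%, 3.21%, 1.47% and 12.4% of all promoters, were in none of the 5 windows. Letters in a window are a description and no evidence of binding.

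The contrast of EpiLC against mESC-2i was not named in the choice of genes, but the same libraries served for the choice, so no test is given here either. It follows the step from the naive cells to the EpiLC made from them. Of the 7 genes 5 passed the filter on low counts. Each passed through the group where it was higher. In EpiLC Wt1 and Arap3 lay above, and Inhbb, Atp7a and Ceacam1 below, every mESC-2i library. How many of all genes were without overlap here was not counted. In this pair 32.0% of all tested genes were called higher and 37.8% lower. The fitted log2 fold change was 7.89 (SE 0.25) for Wt1 and 5.86 (SE 0.44) for Arap3. In counts scaled for depth these were ratios of 259 (interval 111 to 799) and 70.9 (interval 19.2 to 593) over 5 and 2 counts in mESC-2i.

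The other fitted genes were at or near 0 in EpiLC. For Ceacam1 the log2 fold change over mESC-2i was -6.85 (SE 0.68), for Atp7a -6.81 (SE 0.64). Both rest on 1 count over the EpiLC libraries, in replicate 3, and without that library the fitted values were -8.93 and -8.89. Inhbb was at -3.77 (SE 0.60). Lrrc8b did not pass the filter, and mESC-2i, with 36 counts against 0, was at least 8.97-fold higher than EpiLC. Cav2 did not pass either, with 6 counts in EpiLC against 2, a ratio of 4.02 (interval 0.718 to 40.7) and overlapping groups, so that a difference was not detectable at this depth.

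**Figure D2:**
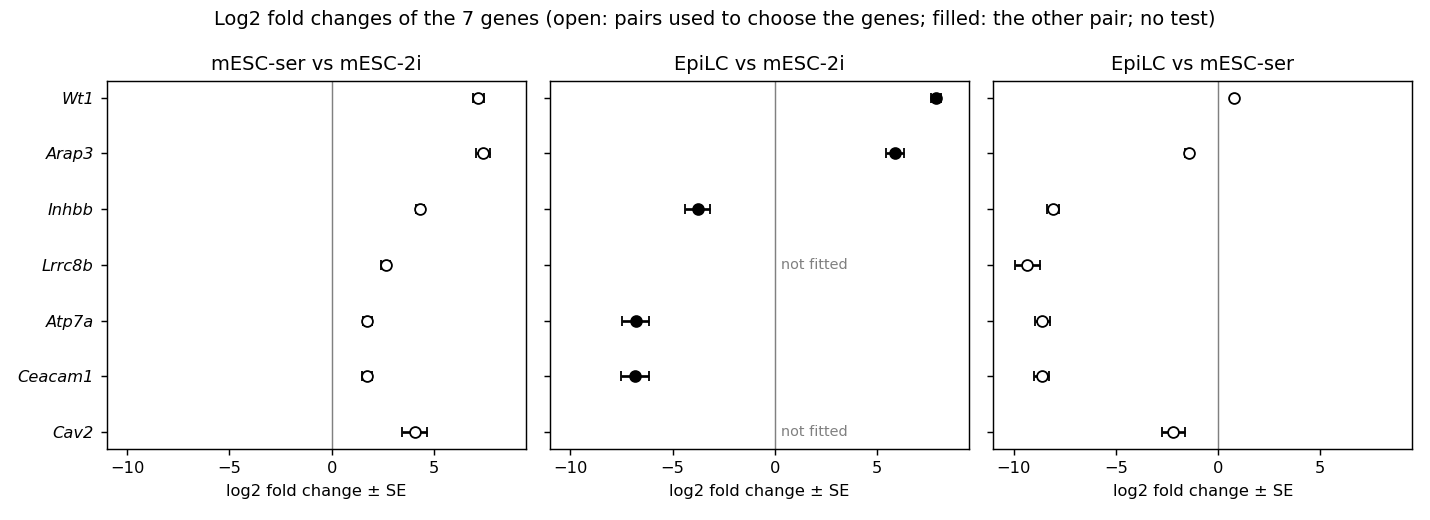
Log2 fold changes (horizontal axes) with the SE as bars for the 7 genes in the 3 pairs of groups, filled for the pair that the choice of genes did not name and open for the pairs it used, with no test in any. In EpiLC vs mESC-2i Wt1 (7.89) and Arap3 (5.86) lie to the right of 0 and Inhbb (-3.77), Atp7a (-6.81) and Ceacam1 (-6.85) to the left, and Lrrc8b and Cav2 were not fitted.

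Fold changes in this series move with gene length, and 6 of the 7 genes, all but Cav2, have more exonic bases than the median of 3824 over all tested genes, with a range of 3335 to 8734. Among all tested genes in that length range the median log2 fold change was 0.06 for mESC-ser over mESC-2i, -0.32 for EpiLC over mESC-2i and -0.36 for EpiLC over mESC-ser, while in shorter genes it was -0.31, 0.48 and 0.81. A fit with offsets for length and GC content gave log2 fold changes of 7.27 for Wt1, 7.28 for Arap3, 4.44 for Inhbb, 3.93 for Cav2, 2.39 for Lrrc8b, 1.68 for Ceacam1 and 1.36 for Atp7a in the first of these contrasts. For EpiLC against mESC-2i it gave 8.39 for Wt1, 6.28 for Arap3, -3.72 for Inhbb, -6.21 for Atp7a and -6.39 for Ceacam1. No direction turned.

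Protein-coding genes within 100 kb of the 7 genes numbered 20, of which 15 were tested in mESC-ser against mESC-2i. Of these 6 were called higher and 4 lower (40.0% and 26.7%, beside 25.9% and 30.3% of all genes), with a median log2 fold change of -0.0468 against -0.0433 over all genes. Among those called higher were Cav1, Lrrc8c, Ceacam2, Atrx and Diaph1. Those called lower were Ralb, next to Inhbb, and Cox7b, Magt1 and Taf9b, around Atp7a. In EpiLC against mESC-ser 4 of 15 were called higher and 9 lower, beside 35.5% and 37.8% of all genes. The 2 neighbours of Wt1, Them7 and Gm11060, were not tested. Atp7a lies 4.83 kb from Cox7b, a subunit of cytochrome c oxidase, which was at a log2 value of -0.99 (SE 0.15, edgeR adjusted p = 0.000218) for mESC-ser over mESC-2i and of 2.21 (SE 0.10, edgeR adjusted p = 3.09e-12) for EpiLC over mESC-ser.

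Cav1, the main structural protein of caveolae, lies 17.2 kb from Cav2 and was read more deeply than it. It held 4, 18 and 10 counts in mESC-2i, 57, 62 and 70 in mESC-ser, with 1, 0 and 0 in EpiLC. The groups did not overlap, and the log2 fold change of mESC-ser over mESC-2i was 2.12 (SE 0.32, edgeR adjusted p = 0.000182). Per kilobase Cav1 was at 1.16 to 1.53 RPKM in mESC-ser, above the 0.305 to 0.462 RPKM of Cav2. In EpiLC Cav2 held 6 counts and Cav1 1 count.

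Ceacam2, a close paralog of Ceacam1 38.4 kb away, held 19, 14 and 37 counts in mESC-2i, 85, 86 and 141 in mESC-ser, with 0, 0 and 1 in EpiLC. Its log2 fold change was 1.69 (SE 0.28, edgeR adjusted p = 0.000386) in mESC-ser against mESC-2i and -5.33 (SE 0.80, edgeR adjusted p = 0.000113) in EpiLC against mESC-2i. The ratio of Ceacam2 to Ceacam1 counts was 0.288 to 0.357 in mESC-ser and 0.226 to 0.576 in mESC-2i. How reads that match both genes were counted is not given in the sources used here, so the split between them is uncertain.

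Lrrc8c, another subunit of the same channel, lies 29.3 kb from Lrrc8b. It held 34, 65 and 66 counts in mESC-2i, 201, 182 and 246 in mESC-ser, with 57, 58 and 47 in EpiLC. It rose in mESC-ser with Lrrc8b, by 1.49 on the log2 scale (SE 0.15, edgeR adjusted p = 1.11e-05). Unlike Lrrc8b it was still read in EpiLC, at a log2 value of 0.39 over mESC-2i (SE 0.18, edgeR adjusted p = 0.0699). After the length and GC correction Lrrc8c was at 1.19 and 1.03 in these pairs. For EpiLC against mESC-ser its log2 value of -1.05 was -0.15 after that correction. Atrx, a chromatin remodeller 97.9 kb from Atp7a on the X chromosome, was at 84.1 to 173 CPM in mESC-2i, 474 to 511 in mESC-ser, with 39.3 to 56.5 in EpiLC. Its log2 fold change of 1.94 in mESC-ser against mESC-2i was 1.05 after the length and GC correction, and its highest mESC-2i library was replicate 3, as for Atp7a.

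**Figure D3:**
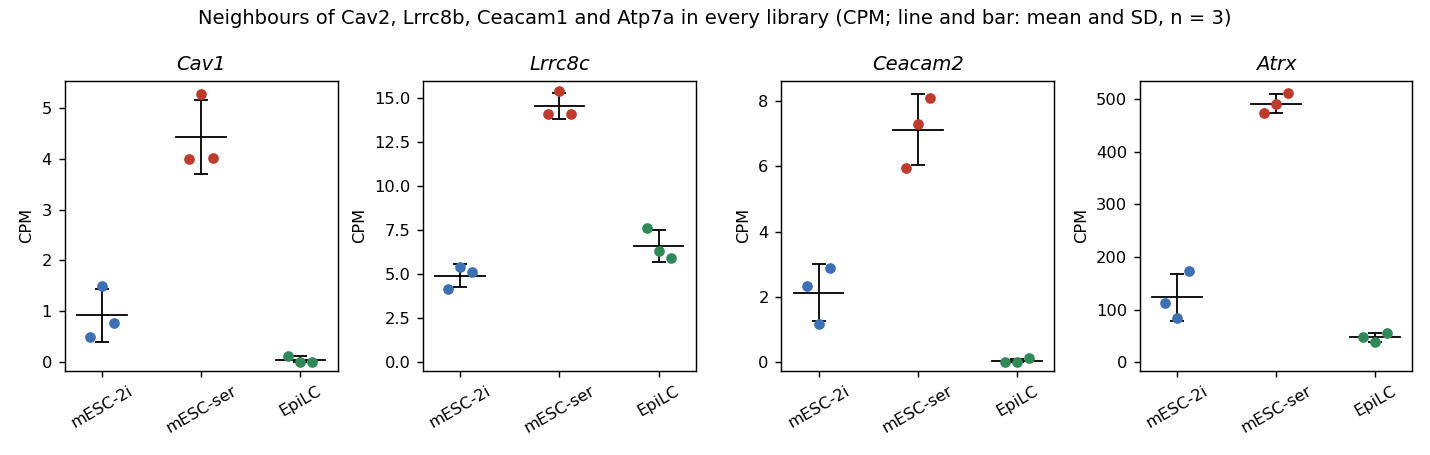
CPM (vertical axes, linear, scaled per panel) of Cav1, Lrrc8c, Ceacam2 and Atrx, which lie within 100 kb of Cav2, Lrrc8b, Ceacam1 and Atp7a, in each library of the 3 groups, with the mean as a line and the SD as a bar that is not drawn below 0. All 4 are highest in mESC-ser, and in EpiLC Cav1 and Ceacam2 are near 0 while Lrrc8c lies at 5.90 to 7.65 CPM.

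Genes that act with the 7 were taken from 7 lists of 88 genes in all. The lists were chosen with earlier results of these data known, so their shares are a description. Cav1, Ceacam2 and Lrrc8c are in the lists as well as among the neighbours above. Over the lists, with 73 genes tested, 22 were called higher and 21 lower in mESC-ser against mESC-2i (30.1% and 28.8%, beside 25.9% and 30.3% of all genes). In EpiLC 19 of 69 were called higher and 25 lower than in mESC-2i, and 22 of 71 higher and 32 lower than in mESC-ser. As shares these were 27.5% and 36.2%, beside 32.0% and 37.8% of all genes, and 31.0% and 45.1%, beside 35.5% and 37.8%. After the length and GC correction the fold of 5 of the 43 genes called in mESC-ser against mESC-2i, 8 of 44 in EpiLC against mESC-2i and 16 of 54 in EpiLC against mESC-ser was no longer over 0.5 in the same direction. Uncalled genes whose fold came over 0.5 only after the correction were not counted here.

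Among partners and targets of WT1, 6 of 10 tested genes were called higher in mESC-ser against mESC-2i and 2 lower. As shares these were 60.0% and 20.0%, beside 25.9% and 30.3% of all genes, with a median log2 fold change of 0.86. Basp1, a corepressor of WT1, rose by 2.38 (SE 0.10, edgeR adjusted p = 4.05e-08) on the log2 scale, and Nphs1, which encodes the podocyte protein nephrin, by 1.88 (SE 0.30, edgeR adjusted p = 0.000306). Nphs1 spread widely in mESC-2i, from 18.3 to 47.8 CPM. Podxl, which encodes podocalyxin, followed the order of Wt1, at 22.8 ± 0.445 CPM in mESC-2i, 53.7 ± 4.47 in mESC-ser, with 75.1 ± 0.367 in EpiLC, and was called in all 3 pairs. Nr0b1, Sall1 and Wnt4 were called higher in mESC-ser than in mESC-2i and lower in EpiLC than in mESC-ser, and Gas1 and Amhr2 were called the other way in both pairs. Pawr and Wtip, which bind WT1, were not called in mESC-ser against mESC-2i, at 0.36 and -0.21. After the length and GC correction Pawr was at 0.72 and Wtip at 0.0098 there. In EpiLC Pawr was called lower than in mESC-2i and in mESC-ser, at -1.88 and -2.2. Wtip was called higher in both pairs, at 0.61 and 0.87, which were 0.27 and 0.24 after the length and GC correction. For EpiLC against mESC-ser, where Wt1 was higher, Basp1 was at -0.47, which was -1.04 after that correction, and was not called. In EpiLC against mESC-2i, where Wt1 was higher, 4 of the 10 were called higher and 4 lower. This was 40.0% each way, beside 32.0% and 37.8% of all genes. Nr5a1, Areg and Pax2 were among the genes not tested.

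The genes of the ARAP family and its GTPases gave 4 of 11 higher and 1 lower in mESC-ser against mESC-2i. As shares these were 36.4% and 9.09%, beside 25.9% and 30.3% of all genes, with a median log2 fold change of 0.15. Cyth3, an exchange factor for ARF proteins that also binds phosphoinositides, rose from 4.25 ± 0.788 to 18.1 ± 0.116 CPM (log2 fold change 2.02, SE 0.16, edgeR adjusted p = 2.22e-06). Arap2 was called higher at 0.58 (SE 0.17, edgeR adjusted p = 0.0111), but its value was -0.026 after the length and GC correction, while Arap1 was at 0.15 (SE 0.11, edgeR adjusted p = 0.282). Arf5 fell. Arf6 and Rhoa, GTPases on which Arap3 acts, were at 0.0507 and -0.0797 and were not called in any of the 3 pairs, nor was Rap1a. After the length and GC correction Arf6 was at -0.69 and Rhoa at 0.65 in EpiLC against mESC-ser, from 0.0888 and -0.32. In EpiLC against mESC-ser 1 of the 11 was called higher and 6 lower (9.09% and 54.5%, beside 35.5% and 37.8% of all genes). Among the 6 were Arap1, Arap2 and Cyth3. The values there were -0.93 for Arap1, -1.59 for Arap2 and -1.21 for Cyth3, and after the length and GC correction -0.37, -0.17 and -0.14.

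For the adhesion molecule Ceacam1, 4 of 8 tested relatives and partners were called higher in mESC-ser against mESC-2i and 2 lower. The median log2 fold change was 0.66. Of all genes 25.9% were called higher and 30.3% lower in that pair. Ceacam2 was among the 4, and the split of reads between it and Ceacam1 is uncertain. Ceacam19, at 1.34 ± 0.546 CPM in mESC-ser, was also called higher. So were Flna, which encodes the actin-binding protein filamin A (log2 fold change 1.85, SE 0.13, edgeR adjusted p = 7.47e-07), and Ptpn11, which encodes the phosphatase SHP2 (1.13, SE 0.12, edgeR adjusted p = 1.61e-05). Ptpn6, which encodes SHP1, was at -0.15 (SE 0.12, edgeR adjusted p = 0.267) and was not called in any pair. Src and Havcr2 fell. In EpiLC against mESC-2i none of 6 was called higher, beside 32.0% of all genes. Called lower were 2, Ceacam2 and Src (33.3%, beside 37.8%). Flna, at a log2 fold change of 0.50, and Ceacam20, at 0.67, were not called there by edgeR, but both were called higher with the replicate number as a block. After the length and GC correction Flna was at 1.16 and Ceacam20 at 0.89.

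In the activin and inhibin pathway 3 of 15 tested genes were called higher in mESC-ser against mESC-2i and 5 lower. As shares these were 20.0% and 33.3%, beside 25.9% and 30.3% of all genes, with a median of -0.45. Of the other chains, Inhba had 0 counts in mESC-2i and EpiLC and 2 to 14 in mESC-ser, and it was not tested. Inha, whose chain turns the beta chains into inhibins, was at 1.15 ± 0.581, 0.765 ± 0.0760 and 0.368 ± 0.0393 CPM in mESC-2i, mESC-ser and EpiLC. The receptor gene Acvr2b rose by 1.39 (SE 0.16, edgeR adjusted p = 2.8e-05) and Smad2 by 0.68 (SE 0.12, edgeR adjusted p = 0.000447), which was 0.28 after the length and GC correction. Acvr1b, Smad3 and Tgfbr3, the co-receptor of inhibins, fell, the last by 2.13 on the log2 scale (SE 0.18, edgeR adjusted p = 3.82e-06). Of the 2 genes for proteins that bind and block activins, Fst fell from 27.0 ± 1.24 to 7.33 ± 0.458 CPM and Fstl3 rose from 0.336 ± 0.186 to 1.63 ± 0.285 CPM. Lefty1 and Lefty2 were called higher in EpiLC against mESC-ser, at 2.32 and 1.61. Over mESC-2i Lefty1 was called higher in EpiLC, at 1.83, and Lefty2 was not called, at -0.20 (SE 0.0906, edgeR adjusted p = 0.0622). Lefty2 was at 139 ± 6.68, 42.7 ± 1.74 and 123 ± 9.53 CPM in mESC-2i, mESC-ser and EpiLC. In EpiLC Inhbb was near 0 and activin A was part of the medium, and a link of either to these levels was not tested.

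More copper handling genes were called lower than higher in mESC-ser, where Atp7a was high. In mESC-ser against mESC-2i 1 of 17 tested genes was called higher and 8 lower (5.88% and 47.1%, beside 25.9% and 30.3% of all genes), with a median log2 fold change of -0.53. In EpiLC against mESC-ser, where Atp7a had 1 count, 10 of 17 were called higher and 5 lower (58.8% and 29.4%, beside 35.5% and 37.8%), with a median of 0.91. The metallothionein gene Mt1 was at 328 ± 57.2 CPM in mESC-2i, 93.6 ± 2.57 in mESC-ser, with 756 ± 6.70 in EpiLC, and Mt2 at 385 ± 72.3, 160 ± 6.34 and 1000 ± 74.2 CPM. Atox1, which encodes the chaperone that hands copper to ATP7A, was at 75.7 ± 16.6, 54.5 ± 7.08 and 440 ± 31.2 CPM. The copper importer gene Slc31a1 fell by 0.83 (SE 0.11, edgeR adjusted p = 6.77e-05) in mESC-ser against mESC-2i. Atp7b, the other copper ATPase gene, was at 3.17 ± 1.29 and 4.50 ± 0.587 CPM in those states and was not called (edgeR adjusted p = 0.208). Lox, which encodes a copper-dependent enzyme loaded with copper in the secretory pathway, was the gene called higher, from 0.461 ± 0.239 to 1.20 ± 0.280 CPM. Several genes of this list are short. After the length and GC correction the log2 fold changes in EpiLC against mESC-ser were 2.38 for Mt1, 1.53 for Mt2 and 1.77 for Atox1, from 3.10, 2.74 and 3.10 before, and that of Atox1 in mESC-ser against mESC-2i was -0.12, from -0.53. The part of gene length in the counts of this list was not tested.

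Of the other subunits of the LRRC8 channel, Lrrc8c was the 1 of 3 tested that was called higher in mESC-ser (33.3%, beside 25.9% of all genes). Lrrc8a, the subunit that every such channel needs, was at 23.3 ± 1.04, 31.3 ± 3.40 and 32.5 ± 4.50 CPM in mESC-2i, mESC-ser and EpiLC and was not called in any pair. Its log2 fold changes over mESC-2i were 0.37 in mESC-ser and 0.46 in EpiLC. After the length and GC correction they were 0.61 and 0.76, so the lack of a call rests on the uncorrected fit. Lrrc8d was called lower in EpiLC than in both mESC states, from 62.0 ± 3.92 CPM in mESC-ser to 37.3 ± 1.08, but its log2 values of -0.63 and -0.65 turned to 0.22 and 0.49 after the length and GC correction. Lrrc8e was not tested.

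Among caveola and flotillin genes 3 of 9 were called higher in mESC-ser against mESC-2i and 3 lower. This was 33.3% each way, beside 25.9% and 30.3% of all genes, with a median of -0.19. With Cav1 the genes Ehd2, which encodes an ATPase at the neck of caveolae, and Cavin4 rose, Ehd2 by 1.82 (SE 0.23, edgeR adjusted p = 6.32e-05). Cavin1, the coat protein gene without which caveolae do not form, was lower in mESC-ser than in mESC-2i, at 60.7 ± 4.57 against 111 ± 9.67 CPM, and was at 8.63 ± 1.39 CPM in EpiLC. Flot2 and Cavin3 also fell in mESC-ser. Cav3 had no count in any library. In EpiLC against mESC-2i 3 of 8 were called higher and 5 lower (37.5% and 62.5%, beside 32.0% and 37.8% of all genes). The median was -0.97 against -0.11 over all genes.

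**Figure D4:**
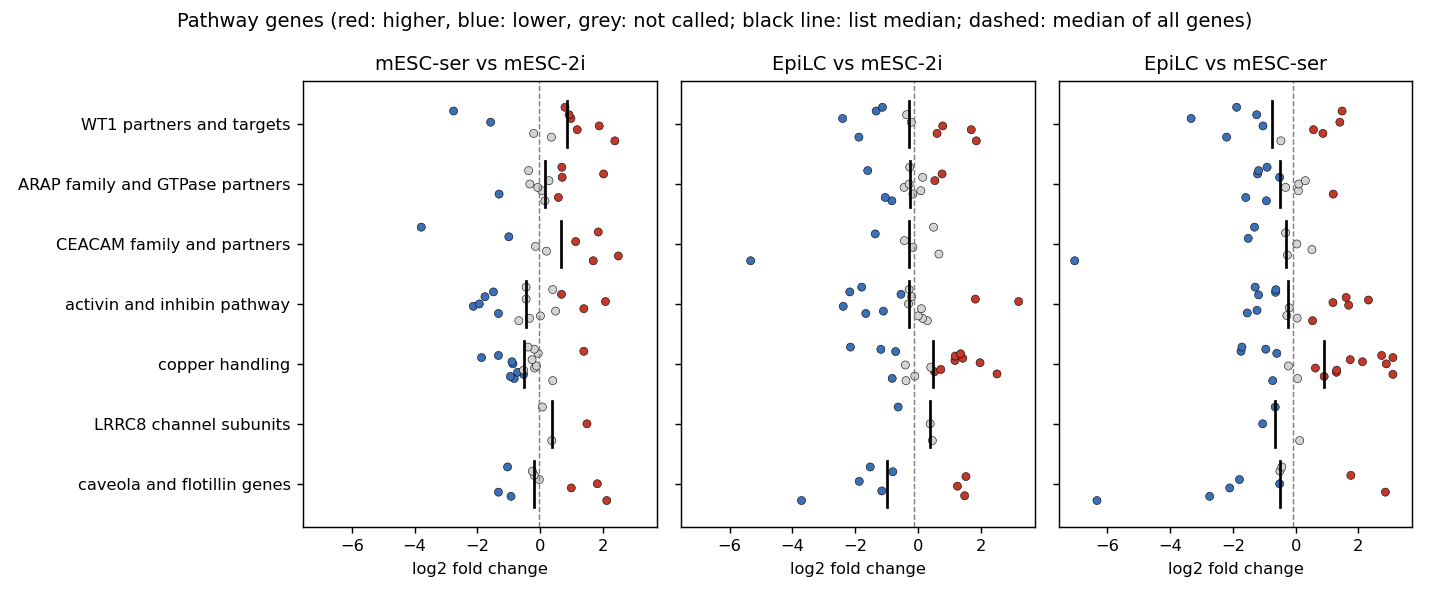
Log2 fold changes (horizontal axes) of the tested genes of the 7 lists in the 3 pairs of groups, each point a gene, red where called higher, blue where called lower and grey where not called, with a black line at the median of the list and a dashed line at the median of all genes. The median of the copper handling genes lies at -0.53 in mESC-ser vs mESC-2i and at 0.91 in EpiLC vs mESC-ser.

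Several of the 7 genes are known from other cell types, so markers of those types were read in the same libraries. The pluripotency markers Pou5f1, Nanog, Sox2, Zfp42, Esrrb and Dppa5a summed to 3180 to 3980 CPM in mESC-2i, 2570 to 2770 in mESC-ser, with 1890 to 1990 in EpiLC, and none was at 0 in any group. The 5 mesothelial and urogenital markers summed to 4.54 to 8.03, 19.8 to 26.0 and 18.7 to 19.1 CPM, and 2 of 3 tested, Lrrn4 and Upk3b, were called higher in mESC-ser than in mESC-2i. With the replicate number as a block Msln was called higher too. In EpiLC the sum was almost all Lrrn4, at 18.0 CPM, with Msln at 0.123 and Upk3b at 0.363 CPM. The 7 extra-embryonic endoderm markers summed to 20.7 to 24.3, 33.4 to 34.8 and 7.66 to 10.4 CPM, with 4 of 6 tested called higher in mESC-ser and 2, Gata4 and Foxa2, called lower. After the length and GC correction Dab2 and Pdgfra, among the 4, were both at 0.35, and Gata4 at -0.29. Gata4 was not called with the replicate number as a block. The 8 fibroblast markers summed to 52.8 to 57.2, 63.5 to 83.2 and 42.3 to 46.4 CPM, and Lum was at 0 in EpiLC. The largest part was Col1a1 in mESC-ser, at 49.6 CPM, and Thy1 in EpiLC, at 29.5 CPM. Of 5 tested, 1 was called higher and 2 lower in mESC-ser than in mESC-2i. The 6 endothelial markers summed to 118 to 125, 65.3 to 73.7 and 16.4 to 18.2 CPM, with Emcn at 0 in all groups and Cdh5 at 0 in EpiLC. Most of this was Pecam1, at 92.0, 40.5 and 13.1 CPM. Of 4 tested, 1 was called higher and 1 lower in mESC-ser than in mESC-2i. The 6 trophoblast markers summed to 96.8 to 108, 51.7 to 60.6 and 17.7 to 18.3 CPM, with Elf5 at 0 in EpiLC. Tfap2c was the largest part in mESC-2i and mESC-ser, at 65.5 and 34.9 CPM. Of 5 tested, 1 was called higher and 3 lower in mESC-ser than in mESC-2i. Of all genes 25.9% were called higher and 30.3% lower in that pair. The part of other cell types in the levels of the 7 genes was not tested.

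By Pearson correlation of log2 CPM over the 9 libraries, which fall into 3 groups and are not independent points, the genes most like Wt1 were Dusp4, a phosphatase gene of the MEK and ERK pathway, and Esrp1, a splicing regulator gene of epithelia (r = 0.999 for both). Esrp1 was at 0.826 ± 0.250 CPM in mESC-2i, 68.3 ± 5.91 in mESC-ser, with 85.4 ± 2.22 in EpiLC. The genes most like Arap3 were Dnmt3l, a cofactor of DNA methylation at 29.6 ± 1.30, 396 ± 8.50 and 187 ± 3.16 CPM, and Txnrd1 (0.997 for both). Manba, which encodes a lysosomal mannosidase, was nearest to Atp7a (0.999) and to Ceacam1 (0.998), followed by Klhl24 for Atp7a and Npepps for Ceacam1. Mief1 and N4bp3 were nearest to Inhbb (0.996), and Tfdp1 (0.997) and Klf6 (0.996) to Lrrc8b. The correlation takes no account of the size of a change. Mief1 was at 53.9 ± 2.15, 80.0 ± 4.64 and 42.3 ± 2.67 CPM, a far smaller relative change than that of Inhbb. Txnrd1, at 212 ± 2.89, 399 ± 11.6 and 337 ± 1.15 CPM, likewise changed far less than Arap3. Itga1, an integrin gene at 0.273 ± 0.208, 3.49 ± 0.987 and 0.893 ± 0.570 CPM, was nearest to Cav2 (0.971), with Kifap3 next. Such profiles were common for some members. Of 10867 genes compared, 11.4% had a correlation over 0.95 with Ceacam1, 11.2% with Atp7a, 9.58% with Lrrc8b, 7.21% with Inhbb, 3.17% with Wt1, 3.16% with Arap3 and 0.0552% with Cav2. Between Wt1 and Arap3 the correlation was 0.935, and between Wt1 and Ceacam1 -0.333.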

How the data were processed

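The authors trimmed 50-base single-end reads with Trim Galore 0.6.6, aligned them to mm10 with HISAT2 2.2.1 and counted them per Ensembl gene with featureCounts of Subread 2.0.1, per the labels and the study's methods. The deposited values are raw read counts with no normalization. The annotation release, strand setting and treatment of multi-mapping reads are not given in the sources used here, and the library kit named does not mark strand. The letters SL in the column names were taken to stand for the serum and LIF of the titles. Symbols, positions, exonic length and GC content come from GENCODE M21, which matched 36429 identifiers (95.1%), and promoters from RefSeq.

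Pairs of groups were fitted, each with its own 6 libraries, by edgeR 4.0.16 (R 4.3.3, limma 3.58.1) after filterByExpr and TMM. SE were taken from the F statistic, and log2 CPM used a prior count of 2. Ratios against a group with at most 3 counts in every library carry an exact 95% counting interval. The members and lists were chosen with earlier results of these data known. A test of the members in EpiLC against mESC-2i was planned, and its p-values are left out because the same libraries served to choose them. Named were the members, called and uncalled list genes, neighbours within 100 kb, and per member the 2 genes of highest correlation with a mean of at least 50 counts in mESC-ser. Some genes that met these rules are not reported here. Pairing by replicate number was checked by correlating, across genes, how far the log2 CPM of each library lay from its group mean. Same-numbered libraries correlated at 0.127, 0.18 and 0.34 for mESC-ser and mESC-2i and at 0.0221 to 0.109 for EpiLC and mESC-2i. Other-numbered libraries correlated at -0.276 to 0.144 and at -0.114 to 0.0103. The check did not settle whether replicates were paired. The printed SE, p-values and calls come from fits without pairing, unless the replicate block is named. Between replicates of a group, chi-square per degree of freedom was 1.61 to 28.3, so none agreed within sampling noise. On simulated counts for EpiLC against mESC-2i over 15229 genes, 89.3% of 2-fold and 100% of 4-fold changes were recovered with 6.9% false calls. The changed genes, 103 by 2-fold and 97 by 4-fold, were fewer than those called in the data. All had a minimum expected count from their mESC-2i level, and a single dispersion served for all genes. Recovery at counts near 0, as in the members, was not simulated. With a simulated length dependence, over 15044 genes, false calls were 97.2% uncorrected and 12.9% with offsets from natural splines (5 degrees of freedom) of length and GC content. The dependence was set on the same exonic length that the offsets fit, and its size was not taken from the data. The simulation therefore cannot show that the correction suits the measured counts. Alternatives were other scalings, filters and thresholds, DESeq2 1.42.0, all 9 libraries in one fit, the replicate block, the length and GC correction, and leaving out each replicate.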

Additional observations from a re-analysis of the deposited data

How the results depend on the processing

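The values of Wt1, Arap3, Ceacam1, Inhbb and Atp7a in EpiLC against mESC-2i kept their sign in every alternative that fitted them, a direction that the choice of these genes in part fixes. Requiring 10 counts in every library left none of them to fit. Leaving out 1 library gave log2 fold changes of 7.52 to 8.23 for Wt1, 5.55 to 6.16 for Arap3, -8.93 to -6.31 for Ceacam1, -4.55 to -3.24 for Inhbb and -8.89 to -6.27 for Atp7a. With a log2 fold change over 1 as the threshold, mESC-ser against mESC-2i gave 4935 calls in place of 8843, and 14 list genes higher and 13 lower in place of 22 and 21. Leaving out 1 library gave 8581 to 9391 calls there. With the replicate block it gave 8953 calls, 22 list genes higher and 21 lower. Only the calls of Flna and Ceacam20 named above changed with the block among the list genes in EpiLC against mESC-2i. Total counts shifted the median fold of all genes on the log2 scale to -0.45 for EpiLC over mESC-2i and -0.41 for EpiLC over mESC-ser, and the length and GC correction to 0.18 and 0.15. After that correction 55.9% and 56.0% of calls were higher. List genes called lower in EpiLC against mESC-ser numbered 23 after it and 40 under total counts, in place of 32. Without replicate 3 of EpiLC the fitted values of Ceacam1 and Atp7a against mESC-ser were -10.99 and -10.96, since no count was left. The DESeq2 value of Lrrc8b there was -8.20. Depth limits Cav2 throughout, Wt1 and Arap3 in mESC-2i, and Lrrc8b, Atp7a, Ceacam1 and Inhbb in EpiLC.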

Other observations

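Single markers of other lineages, chosen after their values were seen, also differed between the states. Hand1, a transcription factor gene of trophoblast and mesoderm, was at 0.0669 ± 0.0621 CPM in mESC-2i (mean ± SD, n = 3), 4.53 ± 0.553 in mESC-ser and 0.0809 ± 0.0712 in EpiLC, and was called higher in mESC-ser against mESC-2i (edgeR adjusted p = 1.62e-06). Gata6, a transcription factor gene of primitive endoderm, was at 0.854 ± 0.150, 4.24 ± 0.676 and 0.231 ± 0.176 CPM (edgeR adjusted p = 2.89e-05 for mESC-ser against mESC-2i). Gata4 and Foxa2 of the same marker list went the other way, from 4.61 ± 0.521 to 3.39 ± 0.308 CPM and from 1.90 ± 0.308 to 0.830 ± 0.194 CPM between mESC-2i and mESC-ser. Both were called lower, Gata4 not with the replicate number as a block. Lrrn4, a mesothelial marker, was low in mESC-2i and higher in both other states, at 1.51 ± 0.662, 15.0 ± 2.37 and 18.0 ± 0.355 CPM. It was called higher in mESC-ser and in EpiLC against mESC-2i, with log2 fold changes of 3.18 and 3.48. Msln, the mesothelial marker for mesothelin, was at 3.95 ± 1.16, 5.89 ± 0.924 and 0.123 ± 0.0131 CPM. Cdx2, a trophoblast marker, fell from 15.5 ± 1.49 to 2.44 ± 0.375 CPM between mESC-2i and mESC-ser.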
